A study of Mus musculus with 16 samples.

Results

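Lysosomal acid hydrolases were described as a set of 37 genes in RNA-Seq of CD11b+ brain cells from 16 female C57BL/6J mice. The list names hydrolases, the activator proteins that serve them, and *Hgsnat*, a lysosomal acetyltransferase. The set holds every name on it that had above 10 counts in 4 or more of the 16 libraries. All 37 listed names were in the table of counts and passed that filter. The table has 24421 rows, of which 14565 passed the same filter and were tested. The rule uses function and detection, and no difference between groups. The list itself was drawn up with earlier results of these data known, so the set was not chosen blind to them.

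CON mice (4 libraries) ate standard chow from weaning. MAL mice (5 libraries) ate an isocaloric diet low in protein and fat for about a month. MAL-BG mice (7 libraries) ate the same poor diet and were also given repeated oral gavages of a mixture of Escherichia coli and Bacteroidales, while the other groups were gavaged with phosphate-buffered saline. No group received bacteria on standard chow. The labels call all samples CD11b+ cells of cortical brain tissue, whereas the Methods start from whole cerebra. The cells were dissociated with enzymes and retained by magnetic beads against CD11b, which microglia carry along with other myeloid cells.

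Acid hydrolases are the enzymes that take apart sugars, lipids, proteins, and nucleic acids at the low pH inside the lysosome. Most are tagged with mannose-6-phosphate in the Golgi, carried to the lysosome by receptors, and made active there. Inherited loss of single hydrolases causes the lysosomal storage diseases, many of which damage the brain. Microglia, the resident macrophages of the brain, degrade engulfed debris, myelin, and synapses in this compartment.

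With the TMM scaling described below, most of these hydrolases had a log2 fold change above 0 in MAL-BG. These were 28 of 37 members against CON and 27 against MAL. Many, but not most, were called higher. Of 37 members, 15 were called higher against CON and the same 15 against MAL, where a call needed an adjusted p below 0.05 and a log2 fold change past 0.58 in size (edgeR quasi-likelihood test, Benjamini-Hochberg adjustment over 14565 genes). Of all genes tested, 11.4% were called higher against CON and 10.2% against MAL. A single member, *Gla*, was called lower against CON and 0 against MAL, where 21.7% and 20.2% of all genes were called lower. The median log2 fold change of the members was 0.417 against CON and 0.444 against MAL, beside -0.041 and -0.027 for all genes, but with libraries scaled on microglia markers these member medians turned to -0.381 and -0.264. Both comparisons use the same 7 MAL-BG libraries, so their values are given side by side and are not independent.

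For many members the direction depended on what the libraries were scaled to, whereas *Hexa*, *Gusb*, *Galns*, *Manba*, *Pla2g15*, *Lgmn*, *Acp2*, and *Dnase2a* stayed above 0 and *Gla*, *Ids*, and *Acp5* below 0 in both MAL-BG comparisons under every scaling tried. Under the TMM scaling of edgeR, used for all values unless another is named and giving CPM as counts relative to the scaled library total, the median gene was near 0, as given above. Scaling on 10 microglia markers moved the median of all genes to -0.858 against CON and -0.746 against MAL, and 1 member, *Lgmn*, was then called higher while 14 were called lower against CON and 13 against MAL. Of all genes, this scaling called 0.481% higher and 62.0% lower against CON, and 0.597% and 55.3% against MAL. With TMM, the members' median stood 0.458 above that of all genes against CON and 0.471 above it against MAL, a distance that a rescaling of libraries leaves nearly the same by construction. Scaling to the same mean log2 CPM moved the median of all genes to 0.206 and 0.193, and scaling to library totals alone moved it to -0.167 and -0.163.

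**Figure D1:**
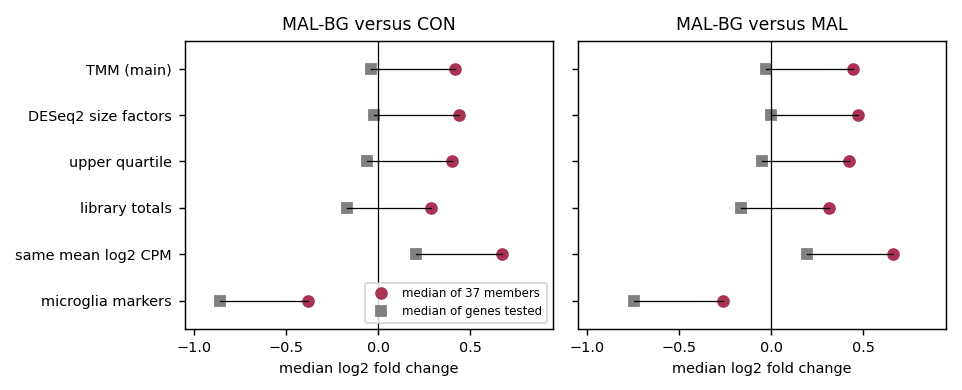
Median log2 fold change (x axis) of the 37 members (circles) and of all 14565 genes tested (squares) under 6 ways of scaling the libraries (y axis), with a line joining the medians of each scaling. Both medians shift together, so the members' median is 0.417 with TMM and -0.381 with microglia markers against CON, and the distance between circle and square is nearly fixed by construction.

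Microglia markers themselves moved with the groups. Of the 10 markers, 6 (among them *Tmem119*, *Cx3cr1*, *Gpr34*, *Fcrls*, and *Olfml3*) were called higher and 0 lower against CON, and their summed level was 16801 to 27499 CPM in CON, 17472 to 29780 in MAL, and 36846 to 50302 in MAL-BG. Markers of choroid plexus epithelium were called lower in 8 of 8 cases against CON, with sums of 10683 to 41134 CPM in CON and 1467 to 13073 in MAL-BG, and neuron markers in 7 of 8. Astrocyte markers were called lower in 5 of 7 cases, monocyte markers in 2 of 8, and border macrophage markers in 1 of 7, while oligodendrocyte markers were called higher in 3 of 7, endothelium markers in 2 of 7, and lymphocyte markers in 2 of 5. Of all genes tested, 11.4% were called higher and 21.7% lower against CON. The monocyte and border macrophage counts lay near that share of lower calls. Neutrophil markers were called higher in 9 of 9, with sums of 55.64 to 199.2 CPM in CON and 196.3 to 12979 in MAL-BG. In such bulk RNA, fewer cells of a type and less RNA per cell cannot be told apart, and the part of these shifts in the hydrolase results was not tested. Library totals were 10312703 to 13461574 counts in CON and MAL and 14191791 to 18705202 in MAL-BG, and thinning all libraries to the smallest total left 15 members higher in each MAL-BG comparison.

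**Figure D2:**
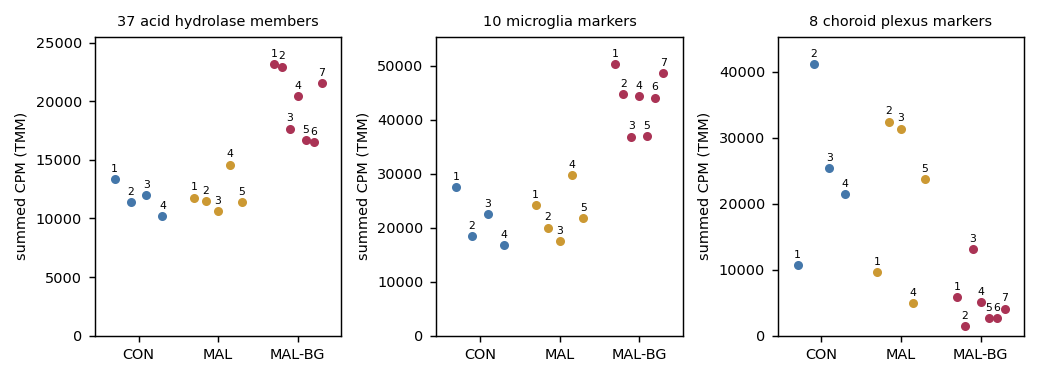
Summed CPM (y axis) in each library, numbered within its group, for the 37 hydrolase members, 10 microglia markers, and 8 choroid plexus markers. The member sum was 10206 to 14599 CPM in CON and MAL and 16519 to 23168 in MAL-BG, and in CON 1 and MAL 4 the member and microglia sums were the highest and the choroid plexus sum the lowest of their groups.

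As a share of the counts on tested genes, the 37 members made up 1.12% to 1.29% of each CON library, 1.14% to 1.41% of each MAL library, and 1.61% to 2.16% of each MAL-BG library. *Psap* and *Lgmn* alone gave 54.1% of the summed member CPM in CON and 62.0% in MAL-BG. Without this pair, the sum of the other members was 4785 to 6060 CPM in CON, 4847 to 6303 in MAL, and 5895 to 9280 in MAL-BG, so the range of MAL-BG overlapped with those of both CON and MAL.

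Per kb of exon, which allows levels of different genes to be compared, *Psap* and *Lgmn* were also the most abundant members in CON, at 1512 and 949.8 CPM per kb. *Hexa* followed at 308.0, *Pla2g15* at 123.3, and *Man2b1* at 101.1 CPM per kb. In MAL-BG, *Lgmn* at 2634 CPM per kb stood above *Psap* at 2258, with SDs between libraries of 24.1% and 17.7% of these means. Such SDs do not measure the order of the pair within a library, which was not tested. *Acp5* was the least abundant member in both groups, at 2.05 CPM per kb in CON and 1.65 in MAL-BG, and no member had fewer than 18 counts in any library.

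Promoters of the members were searched for the core of the motif bound by the lysosomal regulator TFEB, CACGTG, and for the palindrome TCACGTGA that contains it, both of which read the same on either strand. RefSeq promoters on GRCm38.p6, from 250 bases before to 50 after the start site, were at hand for 31 members. The core was found in 7 of these 31 genes (22.6%), beside 11.2% of 11034 tested genes, and the palindrome in 1 (3.23%), beside 2.04%. The 7 were *Arsa*, *Gaa*, *Gla*, *Glb1*, *Lgmn*, *Naglu*, and *Sgsh*, so 4 of the 13 called-higher members with a promoter had it, and *Hexa*, *Dnase2a*, *Acp2*, and *Pla2g15* did not. The palindrome stood only in *Gla*, the member that was called lower, with its core starting at bases -227 and -194 from the start site. Stretches of 100 bases upstream are shown for the motif-bearing members that were given library by library, with the motif in capitals. *Lgmn* has a pair of promoters in the table, and the motif is in the one with the start site further downstream; *Lgmn*, *Naglu*, and *Sgsh* are shown from base -100 to -1 and *Gla* from -250 to -151, each on the strand of the gene.
Lgmn, chr12:102439093-102439192, minus strand: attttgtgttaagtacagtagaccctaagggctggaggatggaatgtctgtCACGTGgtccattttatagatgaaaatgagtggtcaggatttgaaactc
Naglu, chr11:101069994-101070093, plus strand: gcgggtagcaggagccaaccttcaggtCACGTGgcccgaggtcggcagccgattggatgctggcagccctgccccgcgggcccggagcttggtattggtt
Sgsh, chr11:119355511-119355610, minus strand: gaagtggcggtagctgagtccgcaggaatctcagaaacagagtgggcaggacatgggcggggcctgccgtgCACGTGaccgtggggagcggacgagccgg
Gla, chrX:134601156-134601255, minus strand: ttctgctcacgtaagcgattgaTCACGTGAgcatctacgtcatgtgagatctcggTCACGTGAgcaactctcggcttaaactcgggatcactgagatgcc

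Sphingolipid degradation was represented by 10 members, of which 2 were called higher in both comparisons and *Gla* lower against CON. These enzymes take gangliosides, sulfatides, and sphingomyelin apart step by step. The median of the 10 was 0.409 against CON and 0.436 against MAL on the log2 scale. *Hexa* encodes the alpha subunit of beta-hexosaminidase, the enzyme lost in Tay-Sachs disease (ENSMUSG00000025232, chr9:59539540-59565109, plus strand). Its CPM were 785.5, 542.3, 636.2, and 495.2 in CON, 613.2, 601.0, 463.9, 825.7, and 584.4 in MAL, and 1012 to 1648 with a median of 1314 in MAL-BG. The 7 MAL-BG libraries did not overlap with the other 9, the lowest of them being MAL-BG 5 at 1012 and the highest library of CON and MAL being MAL 4 at 825.7. The log2 fold change was 1.05 (SE 0.18, adjusted p = 0.000302, edgeR) against CON and 1.04 (SE 0.17, adjusted p = 0.000182) against MAL. *Hexa* shares 255 exon bases with *Tmem202* on the other strand.

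Such a lack of overlap, with every MAL-BG library above every CON and MAL library, was found for 14 of the 37 members, as for 6.17% of all genes tested. In the other direction it was found for 0 members and 6.36% of all genes. The 14 were those called higher other than *Arsb*, and CPM from library totals without TMM factors also gave 14, with *Arsb* in and *Aga* out.

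*Psap* encodes prosaposin, the precursor of the saposins that lift sphingolipids to their hydrolases (chr10:60277627-60302597, plus strand). Its CPM were 4314, 4384, 4219, and 3678 in CON, 4044, 4329, 4052, 4834, and 3958 in MAL, and 4544 to 7460 with a median of 6484 in MAL-BG. Only MAL-BG 6, at 4544 CPM, fell below the highest other library. *Psap* passed the adjusted p, but at a log2 fold change of 0.58 (SE 0.15, adjusted p = 0.00616) against CON and 0.55 (SE 0.14, adjusted p = 0.00568) against MAL it stayed just under the fold threshold. *Psap* passed both thresholds against CON with DESeq2 size factors and with the DESeq2 Wald test, each at 0.600, and in 8 of the fits that left out 1 library (CON 2 or any of MAL-BG), at 0.581 to 0.641.

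*Gla* encodes alpha-galactosidase A, the enzyme lost in Fabry disease (chrX:134588149-134601125, minus strand). Its CPM were 16.51, 21.43, 18.05, and 16.20 in CON, 10.47, 12.16, 17.38, 13.46, and 17.36 in MAL, and 8.56 to 14.2 with a median of 11.4 in MAL-BG. CON and MAL-BG did not overlap, whereas MAL overlapped with both. *Gla* was lower by a log2 fold change of -0.67 (SE 0.16, adjusted p = 0.0033) against CON and -0.32 (SE 0.15, adjusted p = 0.098) against MAL. The difference between these values is that of MAL versus CON, which was -0.35 with a 95% interval of -0.72 to 0.02 and was not called. With libraries scaled to the same mean log2 CPM, *Gla* was at -0.42 (adjusted p = 0.0343) against CON and no longer passed the fold threshold.

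Of the remaining sphingolipid genes, *Glb1*, the beta-galactosidase of GM1 ganglioside, was called higher at 0.74 (adjusted p = 5.6e-05) and 0.77 (adjusted p = 2.38e-05). Some *Glb1* exon sequence is shared with *Tmppe* on the same strand. *Arsa*, which removes sulfate from sulfatide, and *Galc*, which removes galactose from myelin lipids, passed the adjusted p at 0.51 and 0.45 against CON but not the fold threshold. *Neu1*, a sialidase, stood at 0.37 (adjusted p = 0.127), *Asah1*, acid ceramidase, at 0.36 (adjusted p = 0.226), *Smpd1*, acid sphingomyelinase, at 0.10 (adjusted p = 0.627), and *Gm2a*, the activator of GM2 hydrolysis, at -0.05 (adjusted p = 0.799).

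Glycosaminoglycan degradation had the most called members, 5 of 8, with a median log2 fold change of 0.724 against CON and 0.685 against MAL (with microglia scaling, *Naglu*, *Sgsh*, and *Arsb* turned to small negative values against CON). Exoglycosidases and sulfatases of this group strip heparan, dermatan, and keratan sulfate from their ends, and their loss causes the mucopolysaccharidoses. *Gusb* encodes beta-glucuronidase (chr5:129989011-130003049, minus strand). *Gusb* CPM were 242.1, 146.8, 167.6, and 136.1 in CON, 183.4, 163.7, 156.9, 237.6, and 175.4 in MAL, and 243.2 to 378.8 with a median of 305.1 in MAL-BG. The groups were separated only narrowly, since CON 1 at 242.1 nearly reached MAL-BG 3 at 243.2. *Gusb* differed by 0.83 (SE 0.16, adjusted p = 0.000829) against CON and 0.75 (SE 0.15, adjusted p = 0.00103) against MAL.

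*Naglu* encodes the N-acetylglucosaminidase of heparan sulfate (chr11:101070012-101077672, plus strand). In CON it stood at 122.3, 97.50, 97.73, and 90.23 CPM, in MAL at 92.19, 88.77, 76.49, 124.9, and 93.01, and in MAL-BG at 134.2 to 236.4 with a median of 174.1. MAL 4 was the highest library outside MAL-BG and stayed below the lowest MAL-BG library. The log2 fold changes of *Naglu* were 0.77 (SE 0.16, adjusted p = 0.00106) and 0.87 (SE 0.15, adjusted p = 0.00027).

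*Sgsh* encodes sulfamidase, which removes the N-linked sulfate of heparan sulfate (chr11:119343425-119355536, minus strand). In CON it stood at 31.71, 24.58, 25.30, and 24.90 CPM, in MAL at 29.96, 24.77, 23.66, 31.91, and 25.72, and in MAL-BG at 36.12 to 67.50 with a median of 40.32. The groups did not overlap, and MAL-BG 2 at 67.50 CPM stood above the 36.12 to 47.29 of the other 6. *Sgsh* differed by 0.75 (SE 0.16, adjusted p = 0.00148) and 0.72 (SE 0.15, adjusted p = 0.0012). Its exons overlap those of *Card14* on the other strand by 955 bases, and the strand setting of the counting is not given in the sources used here, so reads of this pair may not be separated.

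*Galns* encodes the sulfatase of keratan sulfate (chr8:122578242-122611463, minus strand). In CON it stood at 16.97, 18.83, 16.08, and 15.82 CPM, in MAL at 22.81, 15.59, 14.45, 20.95, and 16.64, and in MAL-BG at 24.61 to 40.99 with a median of 33.02. No library of CON or MAL reached the lowest of these 7. *Galns* differed by 0.96 (SE 0.17, adjusted p = 0.000311) and 0.87 (SE 0.15, adjusted p = 0.000378).

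*Arsb*, the sulfatase of dermatan sulfate, was called higher at 0.69 (adjusted p = 0.000602) and 0.65 (adjusted p = 0.000594), and its groups overlapped because MAL 4 at 365.9 CPM exceeded MAL-BG 3 at 358.8. *Arsb* shares 2411 exon bases with *Gm26527* and *Gm47210* on the other strand. *Ids*, iduronate sulfatase, moved the other way, at -0.57 (adjusted p = 0.00594) and -0.45 (adjusted p = 0.0173), past the adjusted p but short of the fold threshold. With the adjusted p alone, 21 members were higher and 2 (*Gla* and *Ids*) lower against CON, where 19.8% of all genes were higher and 25.2% lower; against MAL, 20 were higher and *Ids* lower, where the shares of all genes were 20.2% and 24.1%. *Hgsnat*, the acetyltransferase of heparan sulfate, stood at 0.18 (adjusted p = 0.34) and *Idua*, iduronidase, at -0.10 (adjusted p = 0.746) against CON.

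Lysosomal degradation of glycogen and glycoproteins showed a mixed picture, with 2 of 6 members called higher and a median of 0.202 against CON and 0.167 against MAL. *Manba* encodes beta-mannosidase (chr3:135485611-135571404, plus strand). *Manba* CPM were 50.06, 46.01, 48.23, and 50.26 in CON, 53.03, 42.29, 49.90, 66.96, and 46.66 in MAL, and 71.02 to 110.2 with a median of 103.4 in MAL-BG. MAL-BG 5 and 6 were the lowest of their group, and still above MAL 4. The log2 fold changes were 0.97 (SE 0.15, adjusted p = 0.000127) and 0.88 (SE 0.14, adjusted p = 0.00014). *Aga*, which cleaves the link between sugar and asparagine, was called higher at 0.60 (adjusted p = 0.00128) and 0.66 (adjusted p = 0.000397). *Aga* fell short of the fold threshold with library totals alone, at 0.473 and 0.526, and against CON without CON 1 (0.563) or CON 3 (0.558). *Fuca1*, alpha-fucosidase, passed the adjusted p at 0.34 and 0.35. *Gaa*, the alpha-glucosidase of glycogen, stood at -0.25 (adjusted p = 0.135) and -0.13 (adjusted p = 0.402).

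*Man2b1* and *Man2b2*, the lysosomal alpha-mannosidases, had group means that hardly differed and MAL-BG libraries that lay far apart. They and the other genes of this paragraph and the next are named here because of their values. *Man2b1* stood at 720.6 to 959.3 CPM in CON and 724.1 to 1042 in MAL, and in MAL-BG 1 to 7 it stood at 1428, 466.1, 370.6, 674.1, 1092, 1240, and 651.9 CPM. MAL-BG 1, 5, and 6 thus lay above every CON and MAL library and the other 4 below every one, a pattern shared by 2 members, *Man2b1* and *Ppt1*, and by 19 of all genes tested. *Man2b2* showed less of a gap, at 251.4, 137.4, 90.02, 120.6, 200.6, 250.3, and 129.3 CPM in MAL-BG 1 to 7, beside 155.1 to 201.5 in CON and MAL. The coefficient of variation of *Man2b1* was 48.1% in MAL-BG and 13.8% in CON, and its log2 fold change against CON was 0.06 with a 95% interval of -0.56 to 0.68.

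MAL-BG libraries 1, 5, and 6 were the 3 highest of the group for 11 members, none of which passed both thresholds, and for 14.5% of all genes tested. These 11 were *Arsa*, *Asah1*, *Gm2a*, *Hgsnat*, *Man2b1*, *Man2b2*, *Lipa*, *Ppt1*, *Plbd2*, *Tpp1*, and *Scpep1*. The same libraries were the 3 lowest for *Neu1*, *Manba*, and *Acp2*, and for 13.1% of all genes tested. Of the sets of 3 MAL-BG libraries, this one held the most members at either end and was named because of its values. Its member counts beside the shares of all genes may be raised by that choice. *Asah1* ranged from 380.9 to 495.2 CPM in libraries 1, 5, and 6 and from 151.6 to 315.3 in libraries 2, 3, 4, and 7, and *Tpp1* from 274.3 to 373.7 and from 187.3 to 234.6. Sums of neutrophil markers in MAL-BG 1 to 7 were 602.3, 2118, 352.8, 571.6, 12979, 196.3, and 2977 CPM, and their part in this order was not tested. The code of the study holds a batch term, but no source used here gives the batch of a library, so whether this order within MAL-BG follows batch was not tested.

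**Figure D3:**
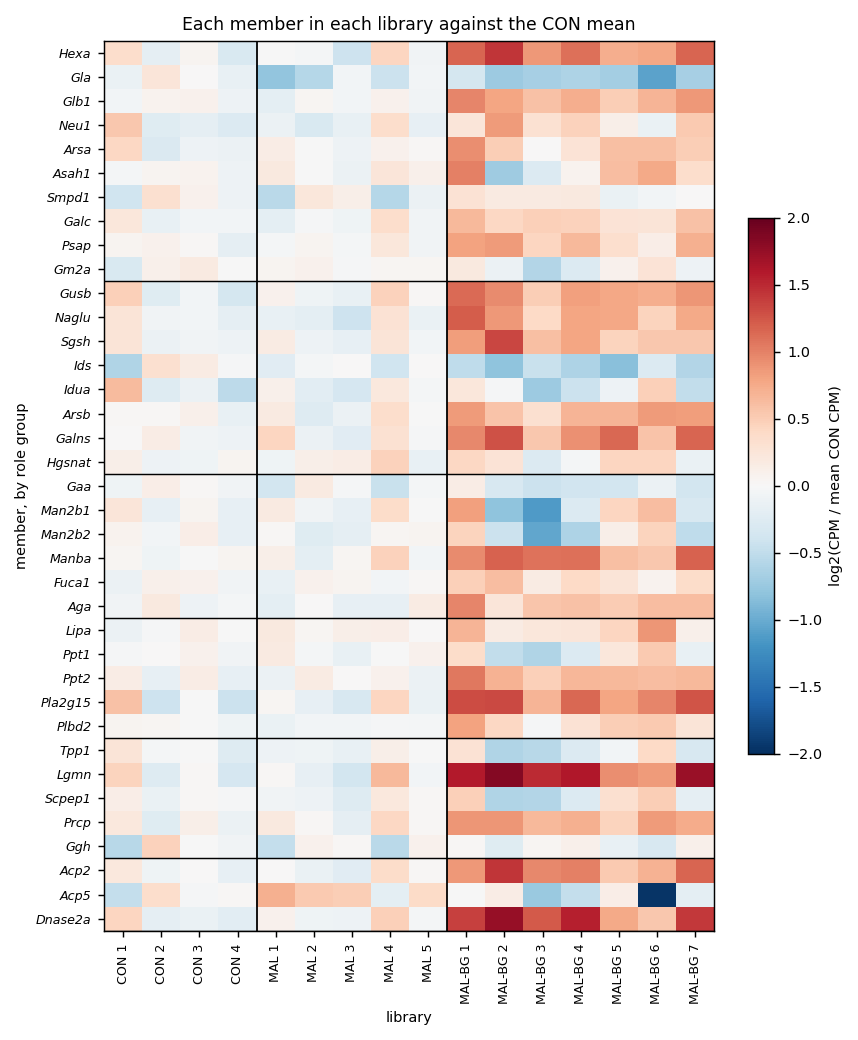
Color gives log2 of the CPM of each member (rows, in the order of the role groups of the text, divided by lines) relative to its CON mean in each library (columns, divided by group), from -2 in blue to 2 in red. *Lgmn* and *Dnase2a* are red in all 7 MAL-BG libraries, whereas *Man2b1*, at 1428 CPM in MAL-BG 1 and 370.6 in MAL-BG 3, changes color within the group.

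Enzymes that free fatty acids and other acyl groups were called higher in 2 of 5 cases, with medians of 0.417 and 0.472. *Pla2g15* encodes lysosomal phospholipase A2 (chr8:106150399-106164715, plus strand). *Pla2g15* CPM were 559.1, 280.3, 369.7, and 277.2 in CON, 381.9, 331.9, 298.1, 498.7, and 340.0 in MAL, and 597.3 to 930.2 with a median of 819.4 in MAL-BG. CON 1 was the highest of the other libraries, at 559.1 CPM against 597.3 in MAL-BG 3. The log2 fold changes were 1.09 (SE 0.21, adjusted p = 0.000629) and 1.09 (SE 0.19, adjusted p = 0.000352). *Ppt2*, a thioesterase, was called higher at 0.69 (adjusted p = 0.000229) and 0.69 (adjusted p = 0.000141), but shares 957 exon bases with *Gm20460* on its own strand. *Lipa*, which hydrolyzes cholesteryl esters, passed the adjusted p against CON at 0.42 (adjusted p = 0.0199) and not against MAL at 0.32 (adjusted p = 0.0501). *Plbd2*, a phospholipase B-like protein, passed it in both at 0.41 and 0.47. *Ppt1*, the thioesterase lost in infantile neuronal ceroid lipofuscinosis, had log2 fold changes of 0.00 with a 95% interval of -0.38 to 0.38 and -0.02 with one of -0.37 to 0.33.

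Peptidases other than the cathepsins were called higher in 2 of 5 cases, and their medians of 0.015 and 0.082 were the lowest of the role groups. *Lgmn* nevertheless had the largest change of all members. It encodes legumain, or asparaginyl endopeptidase, which cleaves after asparagine and matures several cathepsins (ENSMUSG00000021190, chr12:102394084-102439813, minus strand). Its CPM were 2992, 1852, 2239, and 1742 in CON, 2250, 1961, 1715, 3462, and 2129 in MAL, and 3986 to 7853 with a median of 6607 in MAL-BG. CON 1 and MAL 4 were the highest libraries of their groups, and MAL-BG 5 and 6, at 4217 and 3986, the lowest of theirs, but no MAL-BG library overlapped with the others. *Lgmn* differed 2.77-fold, or by 1.47 on the log2 scale (SE 0.24, adjusted p = 0.00024), against CON and by 1.41 (SE 0.22, adjusted p = 0.000179) against MAL. It remained called with the microglia scaling, at 0.719 (adjusted p = 0.00585) and 0.760 (adjusted p = 0.00269).

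*Prcp*, a carboxypeptidase that removes residues after proline, was called higher at 0.74 (adjusted p = 0.000299) and 0.63 (adjusted p = 0.000557). *Tpp1*, the tripeptidyl peptidase lost in late infantile neuronal ceroid lipofuscinosis, stood at -0.11 with a 95% interval of -0.48 to 0.25 against CON. *Scpep1*, a serine carboxypeptidase, stood at 0.02 (-0.40 to 0.43), and *Ggh*, which trims the glutamate tail of folates, at -0.05 (-0.41 to 0.31).

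Phosphatases and the acid nuclease were called higher in 2 of 3 cases. *Acp2* encodes lysosomal acid phosphatase (chr2:91202885-91214098, plus strand). *Acp2* CPM were 237.0, 192.0, 206.4, and 182.4 in CON, 204.8, 186.6, 174.8, 262.8, and 206.9 in MAL, and 292.9 to 550.8 with a median of 399.4 in MAL-BG. The groups did not overlap. It differed by 0.98 (SE 0.16, adjusted p = 0.000239) and 0.96 (SE 0.15, adjusted p = 0.000157). *Acp2* shares 652 exon bases with *Ddb2* on the other strand.

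*Dnase2a* encodes the nuclease that digests DNA of engulfed cells (chr8:84908560-84922915, plus strand). *Dnase2a* CPM were 121.8, 79.78, 83.15, and 78.27 in CON, 96.28, 85.71, 84.23, 126.8, and 88.23 in MAL, and 132.2 to 302.9 with a median of 233.3 in MAL-BG. MAL-BG 6 at 132.2 CPM was only slightly above MAL 4 at 126.8, and the other 6 MAL-BG libraries were at 153.7 or more. The log2 fold changes were 1.28 (SE 0.21, adjusted p = 0.000253) and 1.19 (SE 0.20, adjusted p = 0.000231). *Dnase2a* shares 1616 exon bases with *Mast1*, a neuronal kinase, on the other strand. *Acp5*, the tartrate-resistant phosphatase of osteoclasts and macrophages, was at 1.07 to 6.81 CPM in all libraries and differed by -0.31 (adjusted p = 0.446) and -0.72 (adjusted p = 0.0547).

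**Figure D4:**
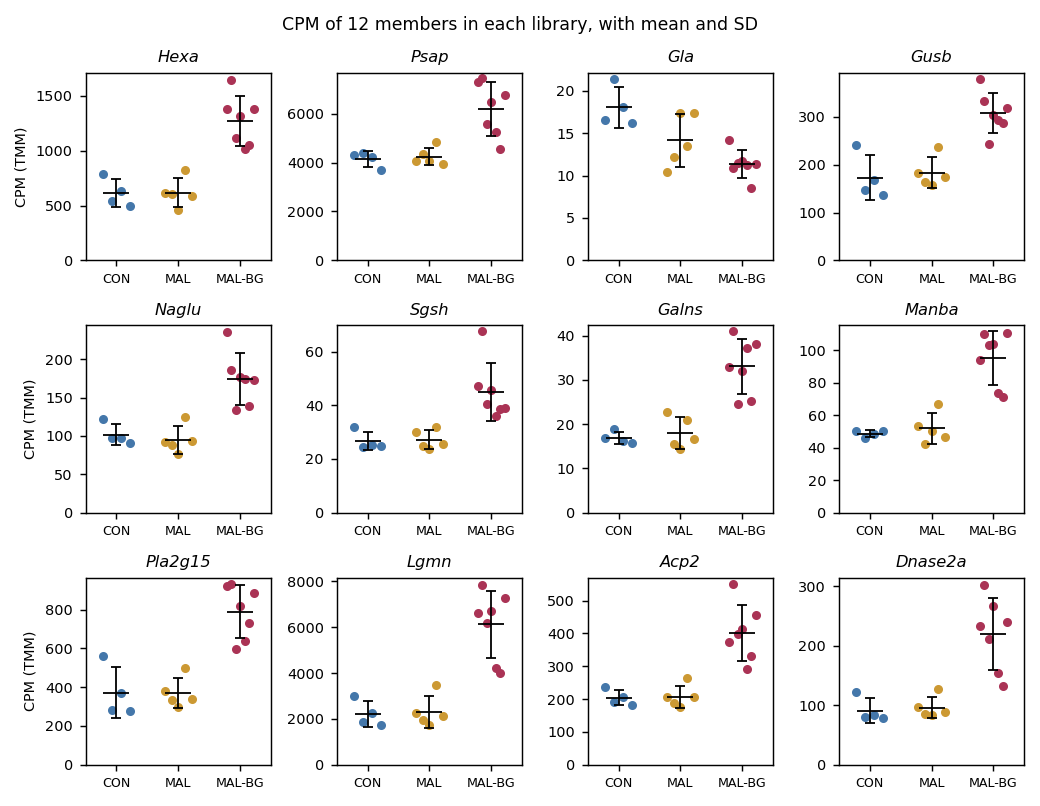
CPM (y axis, from 0) of 12 members in each library of CON (n = 4), MAL (n = 5), and MAL-BG (n = 7), with bars for mean and SD; scaled on microglia markers instead of TMM, *Lgmn* alone of these stays called higher. Every MAL-BG point lies above all others for 10 members, *Psap* overlaps at MAL-BG 6, and *Gla* lies lower in MAL-BG than in CON.

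**Figure D5:**
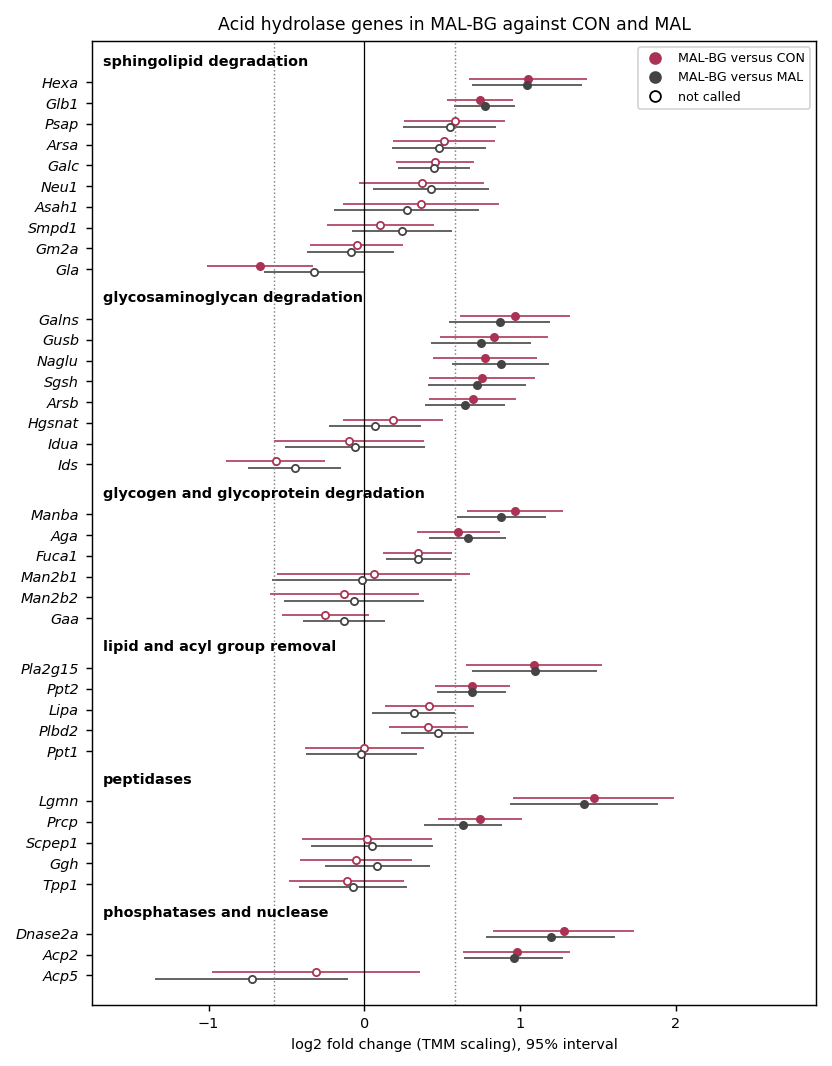
Log2 fold change with 95% interval (x axis, TMM scaling) of each member (y axis) by role group, against CON (red) and MAL (grey). Filled points were called, and dotted lines mark 0.58 on either side of 0. The 15 members with filled points to the right lie in all 6 role groups, and *Gla* alone is filled on the left, against CON. With scaling on microglia markers, *Lgmn* alone would be filled on the right. On the left, 14 members would be filled against CON and 13 against MAL.

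The hydrolases did not differ detectably between MAL and CON, which share the saline gavage and differ in diet. Of all genes, 0% were called between MAL and CON, and 1.46% had an unadjusted p under 0.05 (edgeR), which applied to 0 of the 37 members; the DESeq2 Wald test also called 0 genes, with 241 genes and 1 member at an unadjusted p under 0.05. Without CON 1, 1087 genes had an unadjusted p under 0.05, and the smallest adjusted p of a member was 0.622. Member log2 fold changes ran from -0.35 in *Gla* to 0.41 in *Acp5*, with a median of 0.007 and a median absolute value of 0.061, beside 0.124 for all genes. The 95% intervals of 32 members lay wholly within 0.58 of 0, so a change as large as the fold threshold lay outside them, and the widest reached from -0.31 to 1.14 for *Acp5*. For *Lgmn*, the interval was -0.46 to 0.58.

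CON 1 and MAL 4 carried the highest levels of several called members within their groups, among them *Hexa*, *Lgmn*, *Pla2g15*, *Gusb*, *Naglu*, *Sgsh*, *Acp2*, and *Dnase2a*. The same libraries had the highest microglia and border macrophage marker sums of their groups. Their choroid plexus, monocyte, neuron, astrocyte, and endothelium marker sums were the lowest. Border macrophage sums were 629.9 CPM in CON 1, beside 212.7 to 349.0 in the other CON libraries. They were 763.8 CPM in MAL 4, beside 246.5 to 347.6 in the other MAL libraries. Without these libraries, an alternative chosen after the values were seen, 19 members were called higher and 2 lower against CON, and 18 higher and 1 lower against MAL, where 17.4% of all genes were higher and 21.7% lower against CON, and 15.1% and 20.5% against MAL. The part of cell composition in the levels of these genes was not tested.

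Members were compared with other genes of the lysosomal pathway from 3 lists. Of all genes tested, 11.4% were called higher and 21.7% lower against CON, and 10.2% and 20.2% against MAL. Of 19 tested acid hydrolases outside the set, 6 were called higher and 2 lower against CON, and 7 and 3 against MAL, with a median of 0.419 against CON, beside 0.417 for the members. With the microglia scaling, 1 of them was called higher and 6 lower against CON, beside 62.0% of all genes lower. *Pld4*, a phospholipase D family nuclease, was called higher at 0.89 and 0.71. *Hyal1*, a hyaluronidase, was called lower at -1.93 and -1.79, and *Arsg*, a sulfatase of heparan sulfate, at -0.74 and -0.61, while the hyaluronidase *Hyal2* was called higher at 0.71 and 0.67.

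Of 16 genes for delivery and activation of hydrolases, 3 were called higher and 1 lower against CON, with 4 and 1 against MAL. The shares of all genes were 11.4% higher and 21.7% lower against CON, and 10.2% and 20.2% against MAL. *Grn*, progranulin, which is processed to granulins in the lysosome, was higher by 1.23 and 1.23. *Sumf1*, which makes the formylglycine in the active site of all sulfatases, was higher by 0.68 and 0.71, and *Cln8*, which carries new hydrolases out of the endoplasmic reticulum, by 0.72 and 0.64. The mannose-6-phosphate receptors went apart, with *Igf2r*, the cation-independent receptor, called lower at -1.73 (adjusted p = 0.00239) and -1.59 (adjusted p = 0.00317), and *M6pr*, the cation-dependent receptor, which was named after its values were seen, at 0.55 (adjusted p = 0.000352) and 0.58 (adjusted p = 0.000149), called higher against MAL alone. With the microglia scaling, 0 of the list were called higher and 8 lower against CON (62.0% of all genes were lower), *Igf2r* at -2.55 and *M6pr* at -0.27, so the direction of *M6pr* turned.

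Of 8 genes of transcriptional control, 2 were called higher and 0 lower in both comparisons. All genes had shares of 11.4% higher and 21.7% lower against CON, and 10.2% and 20.2% against MAL. *Tfeb*, a basic helix-loop-helix factor that binds promoters of lysosomal genes at the palindrome TCACGTGA, was higher by 0.78 (adjusted p = 0.000557) and 0.74 (adjusted p = 0.000452). The relatives of *Tfeb* were not called, with *Tfe3* at 0.19 and 0.31, *Mitf* at -0.23 and -0.19, and *Tfec* at 0.15 and 0.29. With the microglia scaling, *Tfeb* was at -0.006 against CON, and 0 genes of this list were called higher and 4 lower, where 62.0% of all genes were lower.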

How the data were processed

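CD11b+ cells of 16 mice gave 1 RNA-Seq library each (CON 4, MAL 5, MAL-BG 7). Libraries were stranded and selected for poly(A). The authors mapped read pairs to GRCm38 using STAR, assigned them to genes using HTSeq, and deposited the raw counts. The HTSeq version is 2.5 in the processing notes, whereas the Methods give a different one. The counting mode, strand setting, and annotation are not given in the sources used here. Columns were assigned to groups by their names. Replicates differed beyond sampling noise (chi-square per degree of freedom of 9.85 or more). Mice of a treatment shared cages, so cage and group cannot be told apart, and p values cover the spread between these libraries.

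Counts were scaled by TMM and the 3 groups fitted together with edgeR 4.0.16 in R 4.3.3. SEs follow from the F statistic and intervals are at 95%. Exon lengths and coordinates are from GENCODE M21, and promoters from RefSeq. Named library by library were the 3 members with the highest mean CPM, the 10 with the largest absolute log2 fold change against CON, and those called lower or in a single MAL-BG comparison; from other lists, up to 6 genes called in both comparisons, or regulators and receptors where under 3 were. Some genes of these lists are not reported here. The steps were tested on simulated data. Alternatives were 5 other scalings, DESeq2 1.42.0, other filters, no fold threshold, 2-group fits, thinning, offsets for length and GC content, and left-out libraries. Members and lists were chosen with earlier results of these data known.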

Additional observations from a re-analysis of the deposited data

Results flagged for a closer look

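In 8 of 111 combinations of member and group, 1 library stood far from the others of its group, where chance would single out about 1 in 20. In CON 1, *Neu1* was at 130.6 CPM beside 74.26 to 79.92 in the other CON libraries, *Sgsh* at 31.71 beside 24.58 to 25.30, and *Dnase2a* at 121.8 beside 78.27 to 83.15. In MAL 4, *Neu1* was at 115.6 CPM beside 72.80 to 82.74, *Galc* at 50.44 beside 34.82 to 38.94, and *Dnase2a* at 126.8 beside 84.23 to 96.28. These libraries also held the highest microglia marker sums of CON and MAL, at 27499 and 29780 CPM. Their border macrophage sums, at 629.9 and 763.8 CPM, were the highest too. Whether these sums bear on the flagged values was not tested. In MAL-BG 2, *Sgsh* was at 67.50 CPM beside 36.12 to 47.29, and in MAL-BG 1, *Ppt2* was at 117.5 CPM beside 78.71 to 92.02.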

How the results depend on the processing

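Precision depends on the spread between 4, 5, and 7 mice, since replicates differed beyond sampling noise. Depth may also limit *Acp5*, which held as few as 18 counts in a library. The part of depth in its spread was not tested. With every alternative other than microglia scaling, 11 to 22 members were called higher in each MAL-BG comparison, beside 15, while the share of all genes called higher ranged from 5.99% to 22.6%, and 0 members were called between MAL and CON. No paired analysis was possible because the columns of the table carry running numbers that match no sample title. No batch term was fitted, since no source used here gives the batch of a library. Where a value changed, the cause was not tested.

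Counts of members called lower moved between small numbers. Against CON it was 2 with upper-quartile scaling, library totals alone, no fold threshold, only the compared groups, or CON 1 and MAL 4 left out, and 0 with scaling to the same mean log2 CPM, with or without offsets for gene length and GC content. Beside *Gla*, the second was *Ids*, at -0.57 with TMM. Against MAL, it was 1 with upper-quartile scaling, length and GC offsets, the DESeq2 Wald test, no fold threshold, or CON 1 and MAL 4 left out, and 2 with library totals alone. Without a fold threshold this was *Ids*, with library totals *Ids* and *Acp5*, and otherwise *Acp5*, at -0.70 (adjusted p = 0.0397) with the DESeq2 Wald test. With each library left out in turn, 14 to 17 members were called higher and 1 to 2 lower against CON, and 14 to 16 higher and 0 to 1 lower against MAL. The second lower call against CON, *Ids*, came without CON 1, CON 4, any MAL library, MAL-BG 3, or MAL-BG 6, and the lower call against MAL, *Acp5*, without CON 1, MAL 4, or MAL-BG 5. Higher calls were lost with library totals alone for *Arsb* (0.563 and 0.514), *Aga* (0.473 and 0.526), and *Ppt2* (0.565 and 0.549) in both comparisons and for *Prcp* (0.499) against MAL. With 1 library left out they were lost for *Aga* against CON without CON 1 (0.563) or CON 3 (0.558), and against MAL for *Arsb* without MAL 2 (0.574) and *Prcp* without MAL 3 (0.559). In such fits higher calls were gained against CON for *Psap* (0.581 to 0.641 without CON 2 or any 1 of MAL-BG), for *Arsa* without CON 1 (0.664) or MAL-BG 4 (0.596), and for *Neu1* without CON 1 (0.58), and against MAL for *Psap* without MAL 4 (0.586) or MAL-BG 6 (0.608). Scaling to the same mean log2 CPM added higher calls of *Neu1*, *Arsa*, *Galc*, *Psap*, and *Plbd2* in both comparisons, and of *Fuca1* and *Lipa* against CON. With length and GC offsets these were *Arsa*, *Galc*, *Psap*, *Lipa*, and *Plbd2* in both. Without CON 1 and MAL 4 they were *Neu1*, *Galc*, and *Psap* in both and *Arsa* against CON. *Psap* was also called against CON with all genes that had a count (0.596) and the filterByExpr filter (0.582).

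With microglia scaling, 1 member was called higher in each comparison, 14 lower against CON and 13 against MAL, where 0.481% and 0.597% of all genes were called higher and 62.0% and 55.3% lower, and the member medians were -0.381 and -0.264. These medians were 0.673 and 0.658 with the same mean log2 CPM, 0.688 and 0.641 with length and GC offsets added, and 0.613 against CON without CON 1 and MAL 4, and ranged from 0.398 to 0.525 and 0.400 to 0.500 with each library left out in turn. Log2 fold changes that were above 0 with TMM and below 0 with microglia scaling were, against CON, *Glb1* -0.093, *Neu1* -0.381, *Arsa* -0.305, *Asah1* -0.524, *Smpd1* -0.737, *Galc* -0.350, *Psap* -0.234, *Naglu* -0.041, *Sgsh* -0.037, *Arsb* -0.144, *Hgsnat* -0.660, *Man2b1* -0.820, *Fuca1* -0.484, *Aga* -0.247, *Lipa* -0.437, *Ppt1* -0.871, *Ppt2* -0.119, *Plbd2* -0.435, *Scpep1* -0.848, and *Prcp* -0.059. Against MAL they were *Neu1* -0.244, *Arsa* -0.264, *Asah1* -0.491, *Smpd1* -0.514, *Galc* -0.255, *Psap* -0.162, *Arsb* -0.066, *Hgsnat* -0.663, *Fuca1* -0.380, *Aga* -0.075, *Lipa* -0.425, *Ppt2* -0.048, *Plbd2* -0.276, *Scpep1* -0.704, *Prcp* -0.062, and *Ggh* -0.663.

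Members near 0 also changed sign elsewhere. With library totals alone, log2 fold changes against CON were *Smpd1* -0.033, *Man2b1* -0.061, *Ppt1* -0.127, and *Scpep1* -0.108, and against MAL *Hgsnat* -0.063, *Scpep1* -0.081, and *Ggh* -0.061. With the same mean log2 CPM they were *Gm2a* 0.214, *Idua* 0.135, *Gaa* 0.003, *Man2b2* 0.128, *Tpp1* 0.132, and *Ggh* 0.204 against CON, and *Gm2a* 0.140, *Idua* 0.163, *Gaa* 0.103, *Man2b1* 0.210, *Man2b2* 0.160, *Ppt1* 0.210, and *Tpp1* 0.154 against MAL. With length and GC offsets added they were *Gm2a* 0.136, *Idua* 0.115, *Gaa* 0.164, *Man2b2* 0.169, and *Tpp1* 0.132 against CON, and *Gm2a* 0.082, *Idua* 0.125, *Gaa* 0.205, *Man2b1* 0.409, *Man2b2* 0.139, *Ppt1* 0.10, and *Tpp1* 0.172 against MAL. Without CON 1 and MAL 4, *Idua* was at 0.279 and *Tpp1* at 0.071 against CON, and *Idua* 0.070, *Man2b1* 0.132, *Man2b2* 0.018, *Ppt1* 0.034, and *Tpp1* 0.032 against MAL. *Ppt1* against CON was -0.017 with upper-quartile scaling or thinned libraries and -0.007 with only the compared groups, and *Scpep1* was -0.003 with upper-quartile scaling. Against MAL, *Man2b1* was 0.012 and *Ppt1* 0.008 with DESeq2 size factors or the DESeq2 Wald test, and *Man2b1* was 0.003 with all genes that had a count. With each library left out in turn, ranges against CON that included 0 were *Ggh* -0.218 to 0.121, *Gm2a* -0.153 to 0.048, *Idua* -0.244 to 0.181, *Man2b1* -0.060 to 0.231, *Man2b2* -0.250 to 0.003, *Ppt1* -0.110 to 0.137, *Scpep1* -0.082 to 0.163, *Smpd1* -0.027 to 0.210, and *Tpp1* -0.220 to 0.017. Against MAL they were *Ggh* -0.015 to 0.166, *Idua* -0.186 to 0.053, *Man2b1* -0.143 to 0.148, *Man2b2* -0.191 to 0.052, *Ppt1* -0.130 to 0.106, *Scpep1* -0.050 to 0.185, and *Tpp1* -0.179 to 0.053.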
